A study of Mus musculus with 6 samples.

Results

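Peaks of STRAP eCLIP in long coding exons were examined in mouse embryos and in embryoid bodies (EBs). A peak was taken when its summit, the position with the most tags, lay in coding sequence and in no UTR, in an exon longer than 300 nt. The exon was that of the gene's longest transcript with an exon at the summit. Of 5969 peaks in the 4 eCLIP libraries, 933 met this rule, in 667 exons of 608 genes. The embryo replicates eCLIP-1 and eCLIP-2 held 248 and 224 of them, and the EB replicates eCLIP-1 and eCLIP-2 held 197 and 264. The 2 inputs held 44 (embryo) and 52 (EB) such peaks among 4779, and the 6 libraries held 10748 peaks in all.

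In eCLIP, RNA is crosslinked by ultraviolet light to the proteins that touch it, an antibody is used to isolate 1 protein, and RNA bound to it is sequenced. The embryos were wild type C57BL/6, pooled whole, and labelled as prenatal day 9.5. A legend of the study gives a slightly earlier embryonic age, and which age holds is not settled here. The EBs were aggregates of differentiating wild type C57BL/6 embryonic stem cells (ESCs), 9 days old, grown without LIF and then in N2B27 medium with bFGF. Each tissue had 2 eCLIP libraries, made with an antibody to STRAP, and 1 input, from which the pull-down was left out. Both are mixtures of cell types, so more cells of a type and more RNA per cell cannot be told apart, and mRNA levels were not measured in these files.

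STRAP is a WD40-repeat protein, also known as UNRIP, that associates with the SMN complex, which loads Sm proteins on the small nuclear RNAs of the spliceosome. Most internal exons of mammalian genes are short enough to be recognised across the exon, by factors at both of its splice sites and by SR proteins that bind purine-rich enhancers within it. Long exons are of several kinds. Replication-dependent histone genes have no introns, last exons carry the end of the coding sequence and the 3' UTR, and some large proteins, chromatin regulators among them, are encoded in part by a very long internal exon.

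The libraries differed greatly in depth. The eCLIP libraries held 136935 to 228422 tags, against 6289516 and 6825190 in the inputs of embryo and EB, and a tag is a read left after duplicates were removed. A peak had at least 3 tags in 3 of the eCLIP libraries and at least 4 in embryo eCLIP-2, against 10 in the inputs. Peaks were called in each library by itself, so the deposited fold sets a peak against the background of its own library. The fragment size used in calling was 76 nt in EB eCLIP-2 and 200 nt in the other libraries. The tissue labels were set against marker transcripts: peaks lay on 4 and 3 of 4 embryonic erythroid genes in the embryo eCLIP libraries and on 0 in EB eCLIP, but also on 1 in the EB input and 0 in the embryo input. Of 4 pluripotency genes, 3 held a peak in each EB eCLIP library and 0 in the embryo ones. Of 6 neural progenitor genes, 2 and 0 held a peak in embryo eCLIP and 2 and 1 in EB eCLIP, and of 6 heart genes 1 did in each embryo library, the input included, and 0 in EB libraries. Among 4 mesenchyme and matrix genes, 1 and 2 held a peak in embryo eCLIP, 1 in each EB eCLIP library and 0 in the inputs. Of 4 visceral endoderm and yolk sac genes, 0 held a peak in any library, and Strap itself held none.

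The sequences below are shown because they lie in the regions that recurred across libraries, and because they hold 1 of 4 purine-rich hexamers (GAAGAA with its variants GAAGAG and GAGGAA, along with GAGGAG) or the CAG-repeat hexamer GCAGCA. Each is 30 nt of coding sequence from the RefSeq genome GRCm38, on the gene's strand and 5′ to 3′, taken within 100 nt of the main summit of the region, with the motif in capitals. The first set is from genes whose long exon is part of a gene with introns. They are Rpl4 at chr9:64178238-64178267 (plus strand), Rbm25 at chr12:83674447-83674476 (plus), Snrnp70 at chr7:45377141-45377170 (minus), Ddx21 at chr10:62598521-62598550 (minus), Rpl22 at chr4:152332301-152332330 (plus), Akap12 at chr10:4353800-4353829 (plus) and Hmgb2 at chr8:57514028-57514057 (plus).
Rpl4: aaaaagctggaaGCAGCAgctactgcactg
Rbm25: gtggaagaggagGAAGAAccagagcaaaag
Snrnp70: ctctcgggaccgGAGGAGgcgctcccggag
Ddx21: aagccccaagctGAAGAAtggactctccca
Rpl22: aaaatatttgaaGAAGAAcaacctccgaga
Akap12: ggaaacttccgaGAAGAGaaaggagcaaga
Hmgb2: aacaggctcaaaGAAGAAgaacgaaccaga

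The second set is from histone genes, each a single exon. The linker histone genes are Hist1h1b at chr13:21780475-21780504 (minus strand), Hist1h1d at chr13:23555545-23555574 (plus) and Hist1h1a at chr13:23764154-23764183 (plus), and the H4 gene is Hist1h4d at chr13:23581746-23581775 (plus). The H2A sequence is that of Hist1h2ak at chr13:21753537-21753566 (minus). The identical 30 nt were found in 7 genes of the H2A family, namely H2afx, Hist1h2ac, Hist1h2af, Hist1h2ah, Hist1h2ai, Hist1h2ak and Hist2h2ac. Reads from copies as alike as these can be placed in more than one gene, so the level of any single H2A or H4 gene is uncertain.
Hist1h1b: gtctcccgccaaGAAGAAgacaacgaaaaa
Hist1h1d: caagaagactccGAAGAAggcgaagaagcc
Hist1h1a: tgtcaagactccGAAGAAgcccaagaagcc
Hist1h4d: ggcctcatctacGAGGAGacccgtggtgtg
Hist1h2ak: atccgcaacgacGAGGAGctcaacaagctg

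The first comparison asked whether STRAP peaks lay in long coding exons more often than input peaks. Both embryo replicates had 17.1% of their peaks there, with 95% Clopper-Pearson intervals, which are exact, of 15.2 to 19.2% for eCLIP-1 and 15.1 to 19.3% for eCLIP-2. The embryo input had 1.58% (1.15 to 2.12%). The EB replicates had 15.7% (eCLIP-1, interval 13.7 to 17.8%) and 13.5% (eCLIP-2, 12 to 15.1%), and the EB input had 2.6% (1.95 to 3.4%). The lists were compared by the exact test of Fisher, two-sided, with Benjamini-Hochberg adjustment over the 4 eCLIP libraries. The odds ratio was 12.8 for each embryo library, with an adjusted exact p = 2.48e-76 for eCLIP-1 and 7.57e-73 for eCLIP-2. For the EB libraries it was 6.97 (eCLIP-1, adjusted exact p = 7.27e-42) and 5.85 (eCLIP-2, adjusted exact p = 3.89e-39). Over libraries, the share averaged 15.9% ± 1.71 in eCLIP (SD, n = 4) and 2.09% in the inputs (n = 2), and all 4 eCLIP libraries lay above both inputs. At a score of at least 100 the eCLIP shares were smaller, 9.19% and 7.66% in embryos against 1.16% in the input, and 10.2% and 6.19% in EBs against 2.88%, and each still passed Fisher's exact test (adjusted p up to 0.0201). An exact permutation test over these libraries (two-sided) gave p = 0.133, the smallest p that 4 libraries against 2 allow. The Fisher tests count peaks, which are not independent replicates, and the intervals cover counting error only. The part of the difference in depth and in lowest tag count was not tested. The excess over input was not particular to long coding exons. Shorter coding exons held 20.2% and 17.8% of peaks in embryo eCLIP (input 0.576%) and 13.1% and 23.2% in EB eCLIP (input 1.55%). UTRs held 20.8% and 21.8% in embryo eCLIP (input 2.99%) and 20% and 21.5% in EB eCLIP (input 6.25%). Introns and intergenic sequence held 42% and 50.6% of embryo input peaks, and 40.4% and 46.3% of EB input peaks. These other classes were not tested.

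Within coding sequence the order was the other way round. Of the coding summits in embryos, long exons held 248 of 541 for eCLIP-1 (45.8%) and 224 of 457 for eCLIP-2 (49%), and the input 44 of 60 (73.3%), with odds ratios of 0.308 and 0.35 (Fisher's exact test, two-sided, adjusted p = 1.20e-04 and 6.74e-04). In EBs, they held 197 of 361 (eCLIP-1, 54.6%) and 264 of 717 (eCLIP-2, 36.8%), while the input had 52 of 83 (62.7%). The EB eCLIP-2 share was lower than that of the input (odds ratio 0.347, adjusted p = 3.39e-05), while that of eCLIP-1 did not pass the same exact test (odds ratio 0.716, adjusted p = 0.22). In the annotation, exons over 300 nt hold 41.5% of coding bases, in 30743 exons, and shorter exons hold the other 58.5%. The call in coding sequence did not hold once peaks scoring under 100 were left out, at 60.7% and 61% in embryo eCLIP against 66.7% in the input, and at 54% in EB eCLIP-2 against 68.8% (adjusted p = 1 in each, Fisher's exact test). In EB eCLIP-1 the direction turned, with 75.6% against 68.8%, and did not pass the exact test either (adjusted p = 1).

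**Figure D1:**
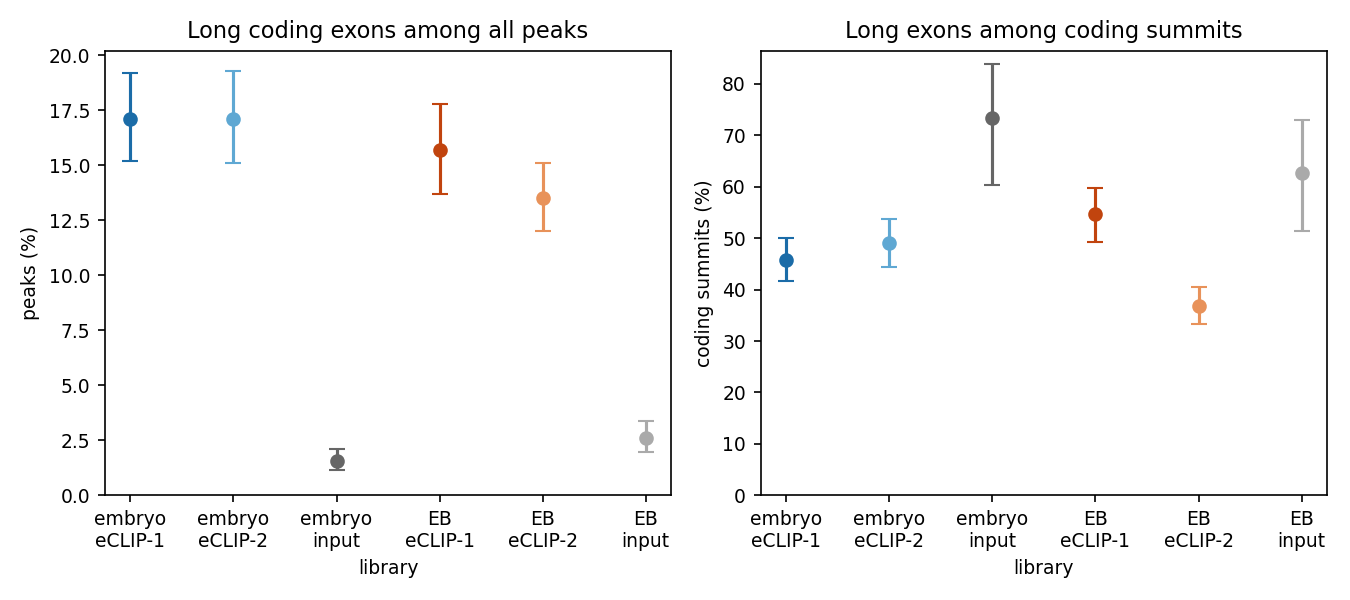
The share of peaks whose summit lies in a coding exon longer than 300 nt (left, % of all peaks) and the share of coding summits that lie in such exons (right, %), for each library, with eCLIP left of the input of its tissue. Points are library values and bars are 95% exact Clopper-Pearson intervals; on the left the 4 eCLIP libraries lie between 13.5% and 17.1%, above the inputs at 1.58% and 2.6%, and on the right the inputs are the highest values.

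The long exons that held STRAP peaks were mostly internal or last. Of the 933 peaks, 385 (41.3%) lay in internal exons, 317 (34%) in last exons, 119 (12.8%) in the only exon of a gene and 112 (12%) in first exons. In the annotation, internal exons hold 34.1% of the coding bases of long coding exons, last exons 46%, first exons 10.7% and single exons 9.15%. The exons had a median length of 827 nt and ran to 20029 nt, a length that includes any UTR in the exon. The coding part of the exon alone was longer than 300 nt for 687 of the 933 peaks (73.6%). A peak could also reach past its exon: the whole peak lay within the exon for 30.6% and 24.6% of the peaks of the embryo replicates (eCLIP-1 and eCLIP-2), and for 28.9% and 65.5% of those of the EB replicates. The tags given below are those of the whole peak, unscaled for depth, and those of a region sum all peaks of a library that overlap it, in whichever exon their summit lies.

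At the limit of 300 nt, the exons just inside held Prpsap1 (301 nt, 3 tags in EB eCLIP-2), L1td1 (302 nt, 19 tags in EB eCLIP-1) and Pdcd4, Sptbn1 and Txndc5 (303 nt each, with 6, 7 and 3 tags in embryo eCLIP-1). Just outside, at 300 nt, were exons of Adss, Daam1, Qk, Slf2 and Tmsb10, with 3 to 12 tags, and R3hdm1 had an exon of 297 nt.

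Peaks in long coding exons were shallow. The median was 6 and 7 tags in the embryo replicates and 7 and 4 tags in the EB replicates (eCLIP-1 before eCLIP-2), against 13 and 15 in the inputs of embryo and EB. In short coding exons the median was 4, 6, 4 and 4 tags in the same order of eCLIP libraries. A score of at least 100 was reached by 138 of the 933 peaks, while 931 exceeded 5-fold. Over all peaks, that score was reached by 370 of 1449 in embryo eCLIP-1 and 470 of 1309 in embryo eCLIP-2. In EBs it was reached by 334 of 1256 (eCLIP-1) and 549 of 1955 (eCLIP-2). Among all peaks, 1445, 1307, 1254 and 1952 exceeded 5-fold in the same order of libraries.

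Where the summit fell along an internal exon differed between libraries. The median distance from the exon's start was 248 nt in embryo eCLIP-1, 234 nt in embryo eCLIP-2 and 213.5 nt in EB eCLIP-1, against medians of 331, 382 and 318 nt to its end. In EB eCLIP-2 the medians were 304 nt from the start and 326 nt to the end. The part of the exon before its midpoint held 61%, 62.1% and 65.4% of the summits in the 3 libraries called with a fragment size of 200 nt, and 46.1% in EB eCLIP-2, called with 76 nt. When the summits of those 3 libraries were moved 62 nt toward the 3' end of the gene, a shift set by the difference in fragment size, it held 46.9%, 53.8% and 52.4%. Between the replicates of EBs, summits in the 68 shared regions had a median signed offset of 74 nt, with eCLIP-2 toward the 3' end. Between those of embryos the signed offset was 4 nt (85 regions). Offsets in opposite directions cancel in these values. The median absolute difference was 114 nt in EBs and 38 nt in embryos. Summits lay within 50 nt of each other in 13 of 68 EB regions and 46 of 85 embryo regions. Whether the fragment size accounts for the shift was not tested beyond this.

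**Figure D2:**
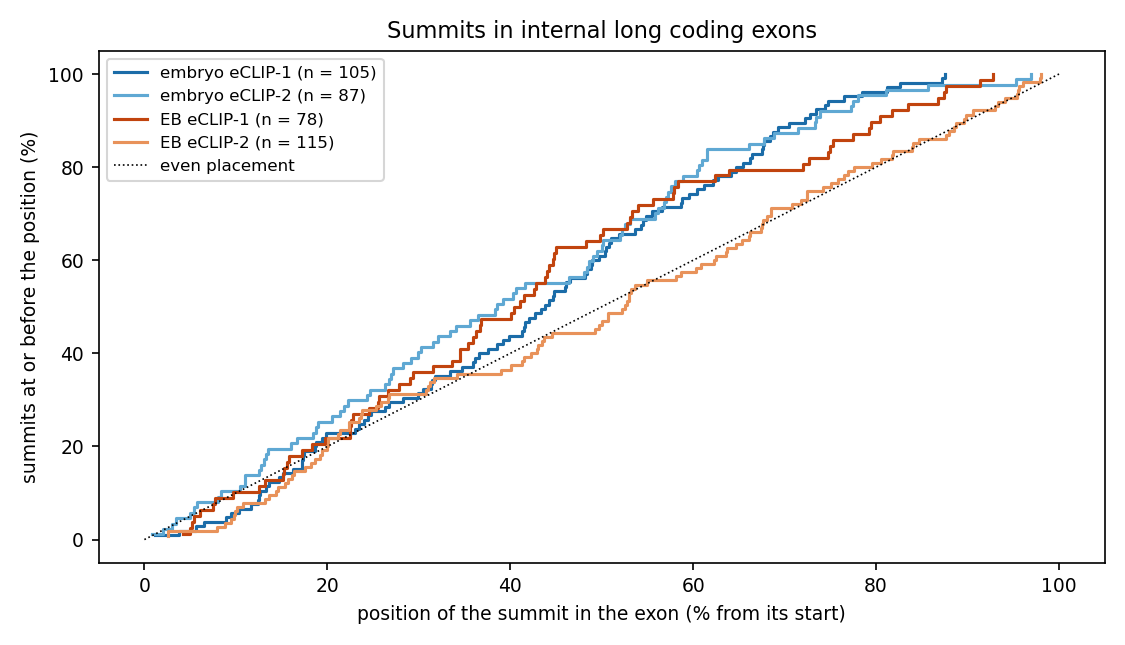
Cumulative share of summits (%) against the position of the summit in its internal long coding exon (% of the exon's length from its start), for the 4 eCLIP libraries as deposited. The dotted line is even placement; EB eCLIP-2 follows it closely, while the other 3 libraries rise above it before the middle of the exon.

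The replicates shared many of these peaks. In embryos, 98 of 248 peaks of eCLIP-1 (39.5%, 95% exact interval 33.4 to 45.9%) and 102 of 224 of eCLIP-2 (45.5%, 38.9 to 52.3%) were overlapped by the other library. Over all peaks of those libraries the shares were 42.6% and 47.2%. In EBs, 90 of 197 peaks of eCLIP-1 (45.7%) and 93 of 264 of eCLIP-2 (35.2%) were shared, where all peaks gave 51.8% and 36.8%. These shares were close to those of all peaks, and above those of short coding exons, at 23.5% and 32.2% in embryos and 32.9% and 16.6% in EBs. Few lay on an input peak of their tissue: 4.44% in embryo eCLIP-1, where all peaks gave 16%, 5.36% in embryo eCLIP-2, where all gave 18.3%, 7.61% in EB eCLIP-1, where all gave 16.7%, and 4.92% in EB eCLIP-2, where all gave 12.1%. In short coding exons the same share was at most 0.429%.

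Merging the peaks wherever they overlapped gave 672 regions in 606 genes. Of these, 502 were held by 1 library, 118 by 2, 27 by 3 and 25 by all 4, so that 170 regions in 161 genes recurred. Without embryo eCLIP-1 the number was 100, and without embryo eCLIP-2 it was 102. The median sum of tags was 4 in regions held by 1 library, 16 by 2, 30 by 3 and 55 by 4. An input peak overlapped 29 of the 170 recurring regions (17.1%), beside 6.7% of all 672 regions, 3.19% of those held by 1 library and 24% of those held by 4. Genes showed the same pattern: 423 held such peaks in 1 library, 124 in 2, 34 in 3 and 27 in 4. Of the 19880 genes with an annotated long coding exon, 3.05% held a STRAP peak there in any eCLIP library and 0.931% in at least 2 libraries.

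The highest tag counts among the 25 regions lay in mRNAs of the respiratory chain, of protein folding and of the ribosome. The region named for mt-Nd5, a mitochondrially encoded subunit of complex I, had 301 and 393 tags in embryo eCLIP and 217 and 238 in EB eCLIP. It spans 4892 nt (chrM:10847-15738) and also covers mt-Nd6, where the summit of EB eCLIP-1 lay. Reads carry no strand in these lists, so the tags belong to the whole stretch and cannot be assigned to mt-Nd5 alone. Hsp90ab1, the cytosolic chaperone HSP90 beta, had 212 and 267 tags in embryo eCLIP and 260 and 205 in EB eCLIP, with its main summit in exon 6 of 11 (309 nt) on chr17:45567830-45572103. Rpl4, a component of the large subunit of the ribosome, had a region with 72 and 80 tags in embryo eCLIP and 119 and 103 in EB eCLIP. Its main summit lay in the last exon (444 nt). In EB eCLIP-2 the peak with its summit in the coding part of that exon held 31 of the tags. No input peak overlapped any of these 3 regions. Both embryo values were above both EB values for the region of mt-Nd5, also per 100k tags of the library (220 and 212 in embryo eCLIP, 131 and 104 in EB eCLIP). The tissues overlapped for Hsp90ab1, and for the whole region of Rpl4 they did so per 100k tags (52.6 and 43.2 in embryo eCLIP, 71.9 and 45.1 in EB eCLIP).

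Cytoskeletal and nuclear mRNAs followed. Tubb5, a beta-tubulin, had 45 and 71 tags in embryo eCLIP and 49 and 38 in EB eCLIP, against 19 in the EB input and no peak in the embryo input. Its long last exon measures 2119 nt. Pelp1, a coregulator of nuclear receptors, had 17 and 22 tags in embryo eCLIP and 21 and 11 in EB eCLIP, with its main summit in exon 16 of 17. Rbm25, a splicing factor rich in arginine and glutamate, had 17 and 17 tags in embryo eCLIP and 22 and 9 in EB eCLIP, with its main summit in exon 15 of 19 (325 nt). Pelp1 and Rbm25 had no input peak in the region.

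Other regions held by all 4 libraries lay in transcripts for ribosomal proteins and for proteins that bind RNA. Serbp1, an mRNA-binding protein found on ribosomes, had 15 and 12 tags in embryo eCLIP and 15 and 13 in EB eCLIP. Snrnp70, the U1-70K protein of the U1 snRNP, had 16 and 13 tags in embryo eCLIP and 16 and 5 in EB eCLIP, against 16 in the embryo input. Ddx21, a nucleolar RNA helicase, had 7 and 14 tags in embryo eCLIP and 15 and 9 in EB eCLIP. Rpl14 and Rpl22, of the large ribosomal subunit, had 6 to 21 tags a library. The region with the fewest tags was that of Crebbp, the histone acetyltransferase CBP, with 3 to 6 tags a library in exon 14 of 31. These genes were named after their values were seen, except where they lead by number of peaks or within a list, as described below.

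**Figure D3:**
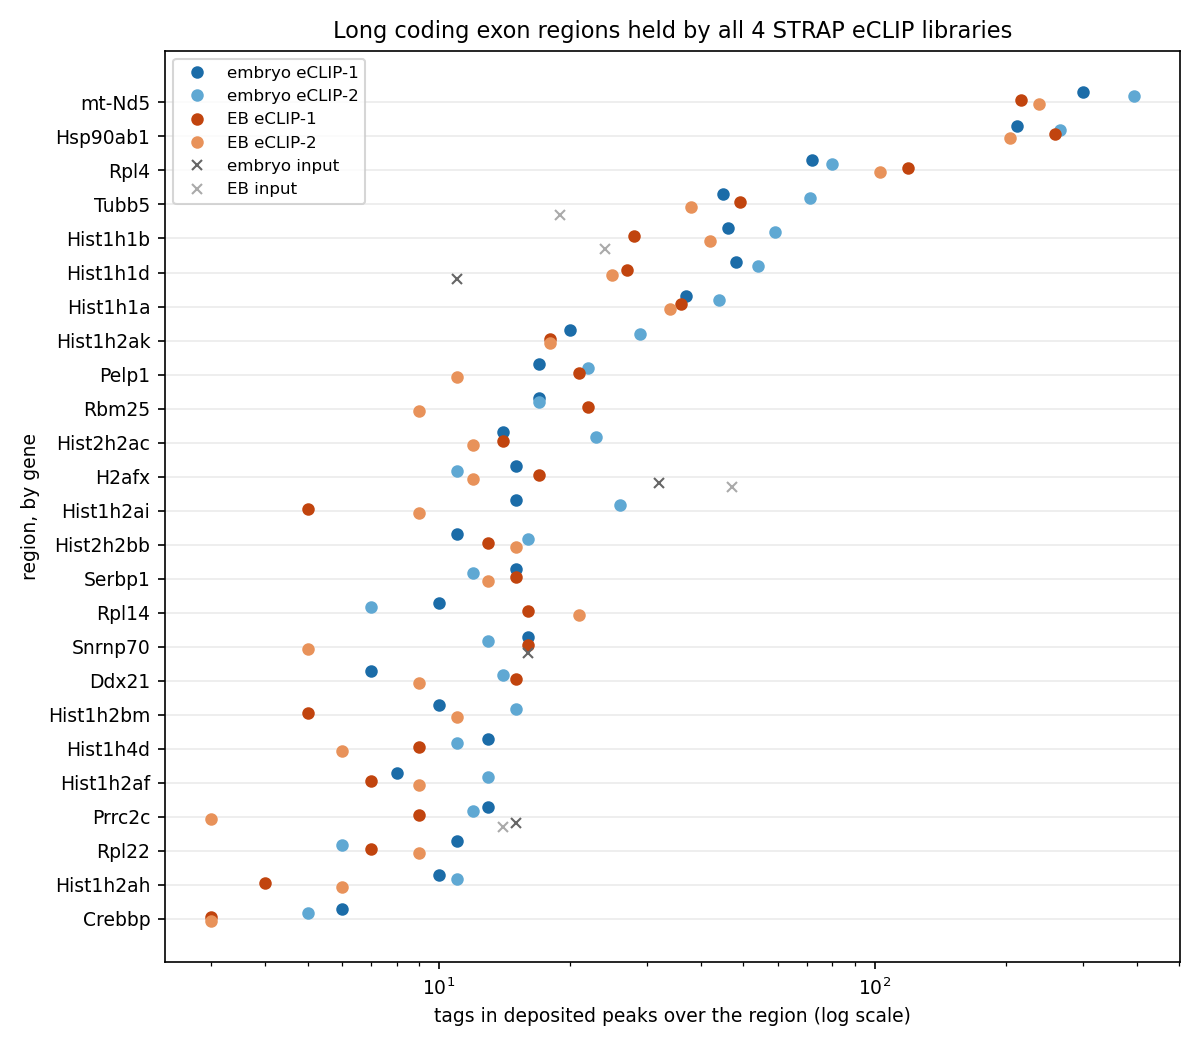
Tags (log scale) in the deposited peaks over each of the 25 regions held by all 4 STRAP eCLIP libraries, ordered by their sum, with circles for eCLIP libraries and crosses for inputs where a peak overlaps the region. mt-Nd5 and Hsp90ab1 lie above 200 tags in each eCLIP library, most other regions lie under 100, and an input peak is present in 6 regions.

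Among the genes with the most peaks, Hsp90ab1 had 7, Serbp1 and Bptf (the largest subunit of the NURF remodeler) had 6 each, and Hist1h1d, Prrc2c, Atrx, Arglu1 and Rtn4 had 5 each. Atrx, a chromatin remodeler whose exon 9 measures 3014 nt, had 11 and 21 tags in that exon in embryo eCLIP and 18 in EB eCLIP-1. Ncl, the nucleolar protein nucleolin, had 4 peaks. Its region at exon 3 of 14 had 71 and 71 tags in embryo eCLIP and 131 and 106 in EB eCLIP, with no input peak, and of these 4 peaks only those of EBs had their summit in the coding part of the long exon. Its region at the last exon had 15 and 13 tags in embryo eCLIP and 36 and 21 in EB eCLIP, against 19 in the embryo input, with a summit in the coding part in both eCLIP-2 replicates. Akap12, a scaffold for protein kinase A with an internal exon of 4798 nt, had 27 tags in embryo eCLIP-2 and 173 and 70 in the EB replicates. Its values were thus spread widely between the EB replicates as well.

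High mean folds belonged to shallow regions, among them those of Grrp1 (79.83), Snx3, a sorting nexin (64.47), Phf14, a PHD finger protein (61.13), Khdrbs1, the RNA-binding protein SAM68 (54.86), and Lamc1, the laminin gamma 1 chain (53.76). Grrp1 and Snx3 had 3 to 5 tags a library. In contrast, the mean fold was 6.22 for mt-Nd5 and 8.31 for Hsp90ab1, whose tags were far more numerous, so fold and tags rank these regions differently.

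Histone genes held STRAP peaks often. Of 67 replication-dependent histone genes with a long coding exon, 30 (44.8%) held a peak in any eCLIP library, 24 (35.8%) in at least 2 and 10 in all 4, beside 3.05% and 0.931% of all genes. Together they held 84 peaks, which made up 7.66% and 9.38% of the peaks in long coding exons in embryo eCLIP-1 and eCLIP-2, and 8.63% and 10.2% in EB eCLIP-1 and eCLIP-2. Of the 30 genes, 2 also held an input peak with its summit in the coding part, namely Hist1h1b and Hist1h1d. Input peaks with their summit elsewhere are left out of this count, among them the one over Hist1h1e given below.

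The linker histones led the histone list. Of 6 H1 genes, which encode proteins that bind the DNA between nucleosomes, 5 held peaks in at least 2 libraries, with 659 tags in all. Hist1h1b had 46 and 59 tags in embryo eCLIP and 28 and 42 in EB eCLIP, against 24 in the EB input and no peak in the embryo input. Hist1h1d had 48 and 54 tags in embryo eCLIP and 27 and 25 in EB eCLIP, against 11 in the embryo input and no peak in the EB input. Hist1h1a had 37 and 44 tags in embryo eCLIP and 36 and 34 in EB eCLIP, with no input peak. The embryo values were above the EB values for these 3 genes, but not for Hist1h1c, with 16 and 27 tags in embryo eCLIP and 30 and 27 in EB eCLIP. Hist1h1e had 63 and 71 tags in embryo eCLIP and 13 and 19 in EB eCLIP, against 32 in the EB input. The 71 tags of Hist1h1e and the 16 of Hist1h1c came from peaks whose summit did not meet the rule. The 659 tags above leave such peaks out. The sixth gene, the testis-type Hist1h1t, held none.

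The core histones varied more. Of 18 H2A genes 10 held peaks in at least 2 libraries, with 402 tags, and of 18 H2B genes 4 did, with 135 tags. Of 12 H3 genes 3 did, with 45 tags, and of 13 H4 genes 2 did, with 64 tags. No peak in a long coding exon was called on the H3 genes in embryo eCLIP-2. Hist1h2ak had 20 and 29 tags in embryo eCLIP and 18 and 18 in EB eCLIP, and Hist2h2ac had 14 and 23 in embryo eCLIP and 14 and 12 in EB eCLIP. H2afx, the variant H2A.X that is phosphorylated at DNA breaks and is not a member of the histone list, had 15 and 11 tags in embryo eCLIP and 17 and 12 in EB eCLIP. The far deeper inputs had 32 tags for embryo and 47 for EB, which per 100k tags of the library is 0.509 and 0.689, against 5.25 to 11 in the eCLIP libraries.

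Proteins of chromatin, RNA and translation made up the next lists. Of all genes with an annotated long coding exon, 3.05% held a peak there in any library and 0.931% in at least 2. The lists were chosen with earlier results of these data known, and mRNA levels were not measured. Of 49 chromatin regulators 21 (42.9%) held a peak in any library, 13 (26.5%) in at least 2 and 4 in all 4, among them Atrx, Bptf and Crebbp. Of 61 splicing factors and RNA-binding proteins 26 (42.6%) held a peak, 15 (24.6%) in at least 2 libraries and 2 in all 4, namely Rbm25 and Snrnp70. Srsf11, an SR-related splicing protein, had 15 and 8 tags in embryo eCLIP and 11 in EB eCLIP-1. Of 19 translation factors and chaperones 7 (36.8%) held a peak and 6 (31.6%) did so in at least 2 libraries, among them Eif3a and Eif5b, both factors of translation initiation. Eif3a had 48 tags over the 4 libraries and Eif5b 30 tags over 3.

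Beside 3.05% and 0.931% of all genes, 16 of 36 cytoskeletal genes (44.4%) held a peak and 6 (16.7%) did so in at least 2 libraries. They were led by Tubb5 and by Actb, cytoplasmic beta-actin. The region of Actb had 68 and 93 tags in embryo eCLIP and 37 and 62 in EB eCLIP. The inputs of embryo and EB had 27 and 36 tags there. The first embryo value is from a peak whose summit lies outside the long exon. In EB eCLIP-2, the peaks that met the rule held 26 of the 62 tags. Of 31 centrosome, kinetochore and cell cycle genes 8 (25.8%) held a peak and 2 (6.45%) did so in at least 2 libraries, Akap9, a centrosomal and Golgi scaffold, and Incenp, of the chromosomal passenger complex, both in the 2 embryo libraries.

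Cadherins and C2H2 zinc finger genes are families with long exons. Of all genes with a long coding exon, 3.05% held a peak there in any library and 0.931% in at least 2. Of 76 protocadherins and large cadherins, whose extracellular domains often lie in a single large exon, 1 (1.32%) held a peak, Fat1 with 3 tags in EB eCLIP-2. That count is too small to set this family apart from all genes. Of 449 C2H2 zinc finger genes, whose finger arrays lie mostly in the last exon, 17 (3.79%) held a peak and 4 (0.891%) did so in at least 2 libraries, close to the shares of all genes. Of 28 SOX, POU and other neural transcription factors 4 (14.3%) held a peak, and only Sox11 did so in at least 2 libraries. Of 19 intronless and immediate early genes 5 (26.3%) held a peak, with Foxc1 in 2 libraries, and of 24 extracellular matrix and receptor genes 4 (16.7%) did, with Fn1 (fibronectin) in 3 libraries and Lamc1 in 2. The level of these mRNAs in the tissues was not measured, and its part in these shares was not tested.

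**Figure D4:**
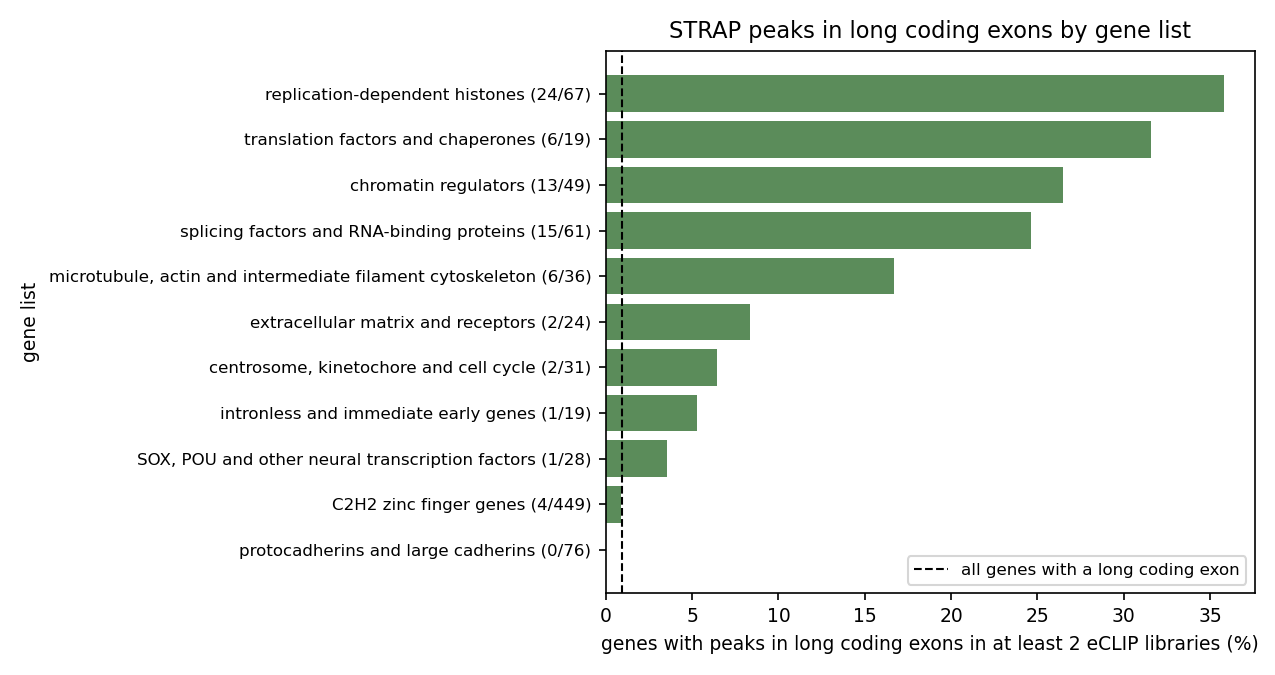
Share of the genes of each list (%, among those with an annotated long coding exon; counts in brackets) with STRAP peaks in long coding exons in at least 2 eCLIP libraries. The dashed line is the 0.931% of all genes with such an exon. Histone genes reach 35.8% and zinc finger genes 0.891%, and cadherins are at 0 of 76 genes, too few to set apart from the line.

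Some regions were held by both replicates of 1 tissue and had no eCLIP peak of any class in the other tissue. There were 44 of them for embryos, of 85 regions held by both embryo replicates. For EBs there were 27, of 68. Beside them, 94 regions were held by at least 1 library of each tissue. The same count over peaks of all classes was not made, so these numbers are not a result about long coding exons. Replicates of 1 tissue shared only 35.2% to 45.7% of these peaks, so a peak missing from the other tissue is weak evidence of a difference. The genes below were picked out after their values were seen. In embryos, Peg3, an imprinted zinc finger gene, had 67 and 75 tags, and Sox11, a transcription factor of neural progenitors, had 70 and 72. Marcks, a substrate of protein kinase C that binds actin, had 50 and 40 tags, and Nefm, a neurofilament subunit, had 21 and 18. Chd7, a chromatin remodeler of the neural crest, had 15 and 22. The EB input had peaks over the regions of Sox11 (36 tags), Marcks (77) and Nefm (15), and the embryo input had 10 tags over Marcks.

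In EBs, Polr2a, the largest subunit of RNA polymerase II, had 176 and 161 tags, in a region with 41 tags in the EB input and 39 in the embryo input. Rere, a nuclear corepressor, had 27 and 31 tags, and Kmt2d, a histone H3 methyltransferase, had 20 and 18. Tet1, which oxidises methylated cytosine and is abundant in embryonic stem cells, had 21 and 7 tags. Zfp57, which maintains imprints, had 16 and 12. Klf2 and Pou5f1 (OCT4), transcription factors of pluripotent cells, had 15 and 7 tags and 11 and 6 tags, and the embryo input had 15 tags over Klf2. These differences between tissues were not tested, and more RNA cannot be told apart from more binding.

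Of the genes that the study examined for eCLIP, 2 held a peak in a long coding exon. Calr, the chaperone calreticulin of the endoplasmic reticulum, had a region in its last exon with 36 and 52 tags in embryo eCLIP and 27 and 26 in EB eCLIP, against input peaks of 19 tags for embryos and 14 for EBs. Only the peaks of the eCLIP-1 replicates had their summit in the coding part of that exon. Fat1 is described above. The input peaks in long coding exons had other leading genes. In the EB input, Arid1a, a subunit of the BAF remodeler, had 2 peaks with 70 tags, and Gm10717 had 304 tags, Marcks 77, Hnrnpu 57 and H2afx 47. In the embryo input, Gm10717 had 248 tags, Prr36 43, Polr2a 39, Samd1 35 and Arid1a 32.

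Purine-rich hexamers, as in the sequences of Hmgb2 and Rbm25 above, were found on the gene's strand in 44.9% to 66.4% of eCLIP peaks. The purine content itself differed little: it was 54.6% and 52.6% in the embryo replicates and 52.7% and 50.3% in the EB replicates, against 50.4% in both inputs and 53.6% in tiles of long coding exons of the same genes. The search took any of the 4 purine-rich hexamers, which can overlap each other, in the 200 nt around the summit. In embryos, eCLIP-1 held one at 66.4% of peaks (95% exact interval 60.1 to 72.3%) and eCLIP-2 at 59.2% (interval 52.4 to 65.7%), where the input did at 45.5% (30.4 to 61.2%). The EB replicates held one at 57.7% (eCLIP-1, interval 50.4 to 64.7%) and 44.9% (eCLIP-2, 38.8 to 51.1%), against 51.9% of EB input peaks (37.6 to 66%). Windows of the same length tiled over long coding exons held one in 49.4% of cases for the genes with a STRAP peak there and in 39.5% for all genes. The intervals of embryo eCLIP-1, embryo eCLIP-2 and EB eCLIP-1 lay above both of these shares, that of EB eCLIP-2 included the share of the same genes, as did that of EB eCLIP-1 with summits moved 62 nt (53.5%, 46.3 to 60.6%), and those of both inputs overlapped every eCLIP interval. On the opposite strand the share was 29.6%, 28.7%, 27.6% and 32.7% in the 4 eCLIP libraries in the same order, near the 27.6% of tiles of the same genes. With peaks scoring under 100 left out, the sense share was 87.9%, 74.3%, 69.7% and 66.7%, over 33 to 35 peaks a library. At that score the embryo input had it at 16.7% of 6 peaks (0.421 to 64.1%). The EB input had it at 63.6% of 11 peaks (30.8 to 89.1%). Histone genes, some alike in sequence, were not left out of these shares.

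The hexamer GCAGCA was found in 18.2% and 13.5% of peaks in embryo eCLIP, against 6.82% in the embryo input, and in 12.8% and 14.8% in EB eCLIP, against 23.1% in the EB input. Tiles of the same genes held it in 15.9%, within the interval of each eCLIP library, and tiles of all genes in 12.5%, within each but that of embryo eCLIP-1 (13.6 to 23.6%). On the opposite strand it was in 14.6% to 20.6% of eCLIP peaks. CTCCTCC, whose reverse complement contains GAGGAG, was found in 7.17% to 10.3% of eCLIP peaks. It was in 4.68% of all tiles, 5.07% of tiles of the same genes, and 9.09% and 3.85% of embryo and EB input peaks. CTTCTTC, whose reverse complement contains GAAGAA, was found in 1.52% to 3.24% of eCLIP peaks. All tiles held it in 4.28%, but tiles of the same genes in 2.41%, and the embryo and EB inputs in 2.27% and 3.85%. CTTGATG and ACCGACA were found in at most 2.04% of peaks in any library, against 1.28% and 0.547% of all tiles. Of the 24 regions held by all 4 libraries outside the mitochondrial genome, 18 held a purine-rich hexamer within 100 nt of the main summit and 2 held GCAGCA. Most of those 18 were histone genes, and several H2A genes among them share the identical 30 nt given above. They are thus not independent, and no comparison share was computed for this count. A match is a description of these letters and not a binding site.

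**Figure D5:**
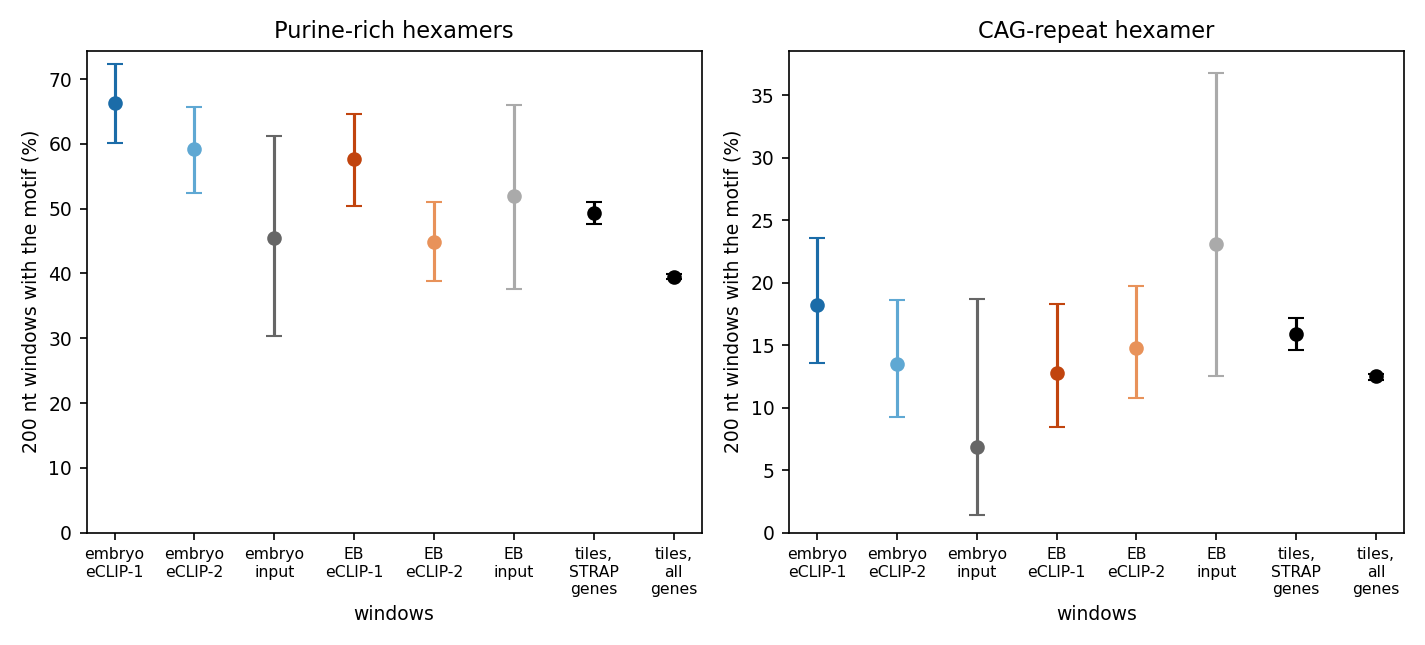
Share (%) of 200 nt windows around summits in long coding exons that hold a purine-rich hexamer (left) or the CAG-repeat hexamer (right) on the gene's strand, for eCLIP left of the input of its tissue, and for tiles of long coding exons in genes with a STRAP peak there and in all genes. Bars are 95% exact Clopper-Pearson intervals; for the purine-rich hexamers embryo eCLIP-1 is highest at 66.4% and tiles of all genes are lowest at 39.5%.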

How the data were processed

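STRAP eCLIP was analysed from the deposited peak lists of 6 libraries (2 eCLIP libraries and 1 input in each of 2 tissues), grouped from the deposited labels. Per the submitters' processing notes and the study's methods, the authors used bcl2fastq 2.18.0.12 to split the reads by library and cutadapt for trimming. Repeat reads were filtered out, alignment to GRCm38 used STAR 2.5.2b, duplicates were dropped, and MACS 1.4.2 called the peaks. The methods name a control for this step, whereas per the file headers the deposited lists were called library by library without one. Per the file headers the p cutoff was 1e-05, the tag size 75 nt, and 0 control libraries were named. The tags of a peak are a deposited count of reads, not scaled between libraries. The deposited score is minus 10 times log10 of the peak's p, and the deposited fold is a ratio to the background of the same library. The study's methods also describe thresholds relative to the input, so the deposited lists may not be the lists behind its figures.

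Each summit was placed with the Gencode M21 basic annotation, and 10676 of 10676 peaks on chromosomes end inside them. Reads carry no strand in these lists, so the strand is that of the annotated gene. Intervals of shares are 95% Clopper-Pearson (exact). Shares were tested two-sided by Fisher's exact test at a threshold of 0.05, with Benjamini-Hochberg over 4 tests, and by exact permutation of libraries. Overlap was counted at 1 bp or more. Other settings were another exon limit, score or fold minimum, transcript, summit position, overlap, motif window, and each replicate left out. Python 3.11.15, pandas 2.3.3 and scipy 1.17.1 were used, and the steps were tested on simulated data.

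Members and gene lists were chosen with earlier results of these data known. Genes were named by a rule: the 12 with the most peaks, the 12 leading regions held by all 4 libraries, the 6 with the highest mean fold, up to 4 per list, the genes the study examined, the 5 leading input genes per tissue, and those at the length limit; others are said to have been chosen after their values were seen. Some items that the rule names are not reported here. The labels do not describe the source of each replicate; the study calls them biological replicates, and a legend names pools of embryos. Depth, at 136935 to 228422 tags per eCLIP library, limits the precision of single peaks to a few tags.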

Additional observations from a re-analysis of the deposited data

How the results depend on the processing

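The share of peaks in long coding exons kept its direction and its call in all 4 eCLIP libraries under every setting tried. Among these were 2 chosen after seeing the data, the coding part of the exon above 300 nt (9.72% to 13.1% in eCLIP, against 1.33% and 2.25% in the embryo and EB inputs) and leaving out histone and mitochondrial genes (12.3% to 16% in eCLIP, against 1.55% and 2.51%). A score of at least 100 lowered it to 9.19% and 7.66% in embryo eCLIP and to 10.2% and 6.19% in EB eCLIP, against 1.16% and 2.88% in the inputs. Leaving out a replicate gave 17.1% to 17.1% in embryos and 13.5% to 15.7% in EBs.

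The share of coding summits in long exons lost its call at a score of at least 100 in embryo eCLIP-1 (60.7%), embryo eCLIP-2 (61%) and EB eCLIP-2 (54%), where 34 to 36 peaks remained in long exons, while EB eCLIP-1 turned to above its input (75.6%, against 68.8%, adjusted exact p = 1), and with exons over 200 nt in embryo eCLIP-1 (63.2%, adjusted exact p = 0.0918) and embryo eCLIP-2 (67.6%, adjusted exact p = 0.245). EB eCLIP-1 gained the call with exons over 500 nt (39.6%, adjusted exact p = 0.00657), with summits moved 62 nt (46.9%, adjusted exact p = 1.57e-04) and with the coding part above 300 nt (40.7%, adjusted exact p = 0.0274). Leaving out a replicate gave 45.8% to 49% in embryos and 36.8% to 54.6% in EBs. The cause was not tested.

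Overlap with the other replicate was 15.2% in EB eCLIP-1 when 50% of the peak had to be covered. At a score of at least 100 it was 73.5% and 72.2% in embryos and 70.6% and 64.7% in EBs, and EB eCLIP-2 then overlapped the input in 8.82%. Recurring regions numbered 52 at 3 libraries or more, 35 at a score of at least 100, and 100 to 127 without 1 replicate, with 100 without embryo eCLIP-1 and 102 without embryo eCLIP-2. Summits moved 62 nt lay 300 nt and 296 nt from the exon start in embryos. In windows of 100 nt, which hold fewer bases, purine-rich hexamers were in 45.3%, 42.6%, 42.3% and 28.1% of peaks, in the order embryo eCLIP-1, embryo eCLIP-2, EB eCLIP-1 and EB eCLIP-2, and GCAGCA was in 8.5%, 7.62%, 6.12% and 9.51%. At a score of at least 100 the purine-rich shares were 87.9%, 74.3%, 69.7% and 66.7%, and GCAGCA was in 6.06% in EB eCLIP-1. The inputs had purine-rich shares of 16.7% (embryo, 6 peaks) and 63.6% (EB, 11 peaks) at that score.

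No paired analysis was possible because each tissue has 1 input, which carries no replicate number, and tissues were not compared by a test. Peaks of 3 or 4 tags limit what can be said of any region held by 1 library.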
